A study of Homo sapiens with 12 samples.

Results

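The 10 cleavage and polyadenylation factors described here are CPSF1, CPSF2, CPSF3, CPSF4 and WDR33 of the cleavage and polyadenylation specificity factor (CPSF), NUDT21, CPSF6 and CPSF7 of cleavage factor I, CSTF2 of the cleavage stimulation factor, and PCF11 of cleavage factor II. They were chosen by gene symbol, as 10 of the 17640 genes listed for HepG2 and the 18434 listed for Huh7. All 10 passed the filter on low counts in every fit. RNA was sequenced from HepG2 and Huh7, which are human hepatoma cell lines, after transfection with UBL5 siRNA or with Ctrl-siRNA, a nontarget control. There were 3 libraries in each of the 4 groups, and the labels name no treatment or allele besides the siRNA and the transfection reagent common to both arms. The labels give collection 52 h after transfection, whereas the legend of the study's RNA-Seq figure names a shorter time. Nothing states whether the 3 libraries of a group came from separate transfections, so each p-value rests on variation among the libraries sequenced, which may be technical.

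Nearly every human mRNA gets its 3′ end by cleavage of the nascent transcript and addition of a poly(A) tail. CPSF reads the AAUAAA signal through WDR33 and CPSF4 and cuts with CPSF3. Cleavage factor I binds UGUA elements upstream and influences which of several sites in a gene is used, cleavage stimulation factor binds the U- and GU-rich stretch downstream of the cut, and PCF11 ties the complex to RNA polymerase II and to the end of transcription. UBL5 is a ubiquitin-like protein that binds the spliceosome and is needed for efficient pre-mRNA splicing. Splicing of a terminal exon and cleavage at its end are coupled in human cells.

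The machinery acts on its own transcripts too, so the ends of 3 member genes are shown, CSTF2 and PCF11, which were called in both lines, and CPSF7, which rose in Huh7. Each run holds the last 30 bases of the canonical transcript of GENCODE release 44 followed by 30 bases of GRCh38 sequence past its end, and capitals mark the poly(A) signal.
CSTF2: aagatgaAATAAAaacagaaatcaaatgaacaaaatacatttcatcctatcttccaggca
PCF11: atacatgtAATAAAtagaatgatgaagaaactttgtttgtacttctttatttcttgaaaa
CPSF7: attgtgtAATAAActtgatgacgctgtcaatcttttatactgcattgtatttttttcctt
They lie at chrX:100841491-100841550 on the plus strand, chr11:83185765-83185824 on the plus strand and chr11:61402699-61402758 on the minus strand. In the last 50 bases of the transcript, searched on the transcribed strand, 8 of the 10 members hold AATAAA, which 63.5% of 20033 protein-coding canonical transcripts hold. CPSF4 holds ATTAAA and no AATAAA, as do 13.9% of the 20033 transcripts. CPSF1 holds neither, as do 22.6%. The cleavage factor I letters TGTA occur in this stretch in 4 members (CPSF1, CPSF6, CPSF7 and PCF11) and in 29.2% of transcripts. The 30 bases after the end of CSTF2 hold 11 G or T, whereas the median of 20032 transcripts is 18 and 3.2% have 11 or fewer. This stretch of CSTF2 was singled out after its letters had been seen. A match, or its absence, describes the annotated end only, and use of these ends was not measured.

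The libraries held between 19469574 and 29744471 counts. UBL5 itself fell by 3.63 on the log2 scale in HepG2 (adjusted p = 8.36e-05) and by 3.44 in Huh7 (adjusted p = 2.86e-10). One library stood apart, since HepG2 Ctrl-siRNA replicate 3 listed 1773 genes at 0 and the other HepG2 libraries 159 to 233. The column headers of both HepG2 replicate 3 libraries lack the suffix that ends the other headers, and whether they were sequenced or processed apart is not stated. The biological coefficient of variation was 0.189 in HepG2 and 0.0663 in Huh7, so smaller changes passed the test in Huh7. All 8 hepatocyte markers were listed in both lines, with summed levels of 49300 to 57200 CPM (gene counts relative to the library total) with UBL5 siRNA and 51900 to 56000 CPM with Ctrl-siRNA in HepG2, and of 28700 to 29100 CPM and 28700 to 30000 CPM in Huh7. Of 6 leukocyte markers, 3 were listed in HepG2 and 1 in Huh7, the summed levels came almost wholly from LYZ, and PTPRC, CD3E and CD68 were not listed. Their sums were 968 to 1210 CPM with UBL5 siRNA and 1690 to 2220 CPM with Ctrl-siRNA in HepG2, and 324 to 341 CPM and 576 to 591 CPM in Huh7. Endothelial and fibroblast markers summed to 36.6 CPM or less in each library. The part of any of these in the results was not tested.

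UBL5 KD moved 3 members the same way in both lines. CSTF2 fell, while PCF11 and WDR33 rose. In HepG2, 3 of 10 members were called at an adjusted p under 0.05 (edgeR quasi-likelihood test), 2 higher and 1 lower, beside 36.7% of all genes tested (16.5% higher and 20.1% lower). In Huh7, 8 of 10 were called, 7 higher and 1 lower, beside 71.3% of all genes tested (34.9% higher and 36.4% lower). The shares called in either direction lay near the background of their line, so neither total sets the members apart from other genes. By direction, the share called higher in Huh7 was above the 34.9% of all genes. Only 4 members were called higher there when libraries were scaled by their totals only, and 3 when the spread was shared over all 12 libraries. The genes called higher over the whole table fell too, from 5922 to 5197 and 4173. The last of these counts is out of 15668 genes tested in place of 16965. Whether the members lean upward as a set was not tested. The median log2 fold change of the members was -0.02 in HepG2 and 0.19 in Huh7, and that over all genes tested was 0.01 and -0.01. Of the members called in Huh7, 5 were not called in HepG2, and CPSF3 and CPSF6 were called in neither line. All levels given per library are CPM scaled by TMM within a line.

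**Figure D1:**
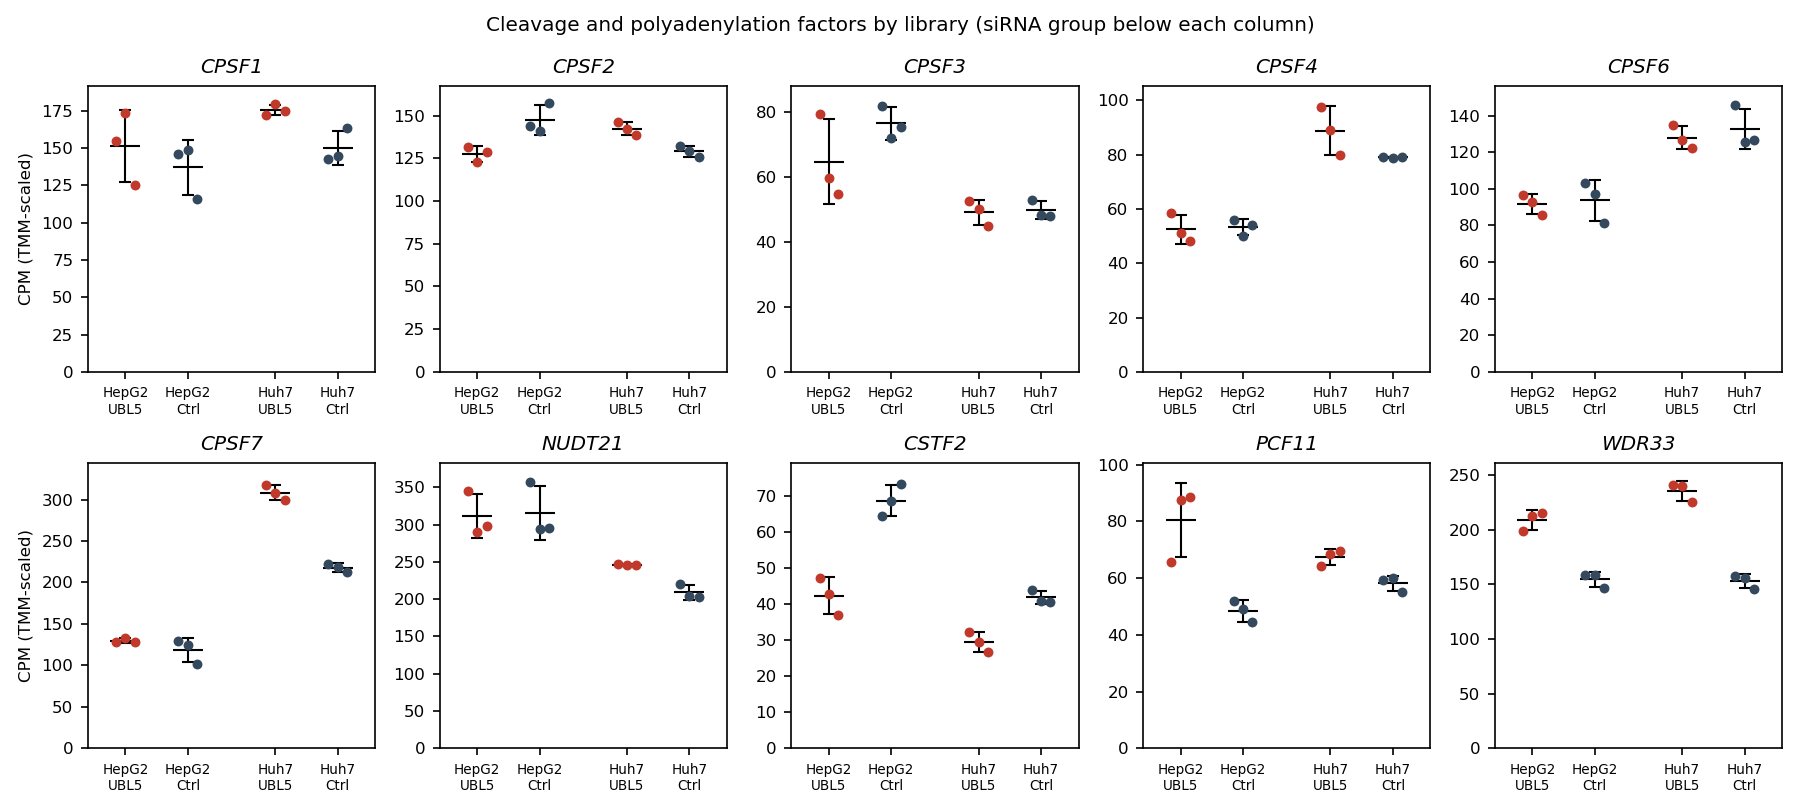
Level of each of the 10 factors in each library, in CPM scaled by TMM within a line (y axis, from 0), for UBL5 siRNA (red) and Ctrl-siRNA (blue) in HepG2 and Huh7. Points are libraries in replicate order from left to right, the long bar is the mean and the whiskers are the SD (n = 3). The UBL5 siRNA libraries lie below every Ctrl-siRNA library for CSTF2 and above every one for PCF11 and WDR33, in both lines.

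CSTF2 encodes the subunit of the cleavage stimulation factor that touches the RNA downstream of the cut. In HepG2, CSTF2 had 47.1, 42.8 and 37.0 CPM with UBL5 siRNA, against 64.4, 68.4 and 73.1 CPM with Ctrl-siRNA. In Huh7, it had 32.2, 29.6 and 26.6 CPM with UBL5 siRNA, against 43.9, 40.8 and 40.6 CPM with Ctrl-siRNA. The groups did not overlap in either line, and the highest KD library in each stayed below the lowest control. CSTF2 fell by 38.3% in HepG2 (log2 fold change -0.70 ± 0.11, SE, adjusted p = 0.00185) and by 29.6% in Huh7 (-0.51 ± 0.08, adjusted p = 0.000102). The difference between the lines was -0.17 (95% interval -0.47 to 0.14, adjusted p = 0.451), so a difference between the responses was not shown. No alternative setting took away either call. The gene lies on chromosome X at 100820391-100841520 (plus strand, 14 exons) and shares no exon bases with another annotated gene.

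CSTF2T, an intronless copy of CSTF2 that encodes an alternative form of this subunit, did not fall with it. In Huh7, CSTF2T had 67.4, 63.6 and 64.3 CPM with UBL5 siRNA, against 59.3, 57.9 and 52.7 CPM with Ctrl-siRNA, and rose by 0.20 ± 0.06 on the log2 scale (adjusted p = 0.00983). This call was lost with library totals only (adjusted p = 0.103) and in the 12-library fit (adjusted p = 0.46). In HepG2, it had 15.6, 12.1 and 12.6 CPM with UBL5 siRNA, against 14.7, 14.5 and 6.82 CPM with Ctrl-siRNA, and was not called (0.17, adjusted p = 0.674). The low value is that of Ctrl-siRNA replicate 3, without which the sign turned (-0.12). Because these genes resemble each other, reads of one may have been assigned to the other, and the values are uncertain to that extent. Per kilobase of exon, Huh7 cells with UBL5 siRNA held 1.40, 1.44 and 1.61 times as much CSTF2T as CSTF2, against 0.901, 0.946 and 0.866 times with Ctrl-siRNA. The corresponding ratios in HepG2 were 0.221, 0.189 and 0.227 with UBL5 siRNA and 0.152, 0.141 and 0.0622 with Ctrl-siRNA. So the more abundant of the pair by this measure was CSTF2T in Huh7 KD libraries and CSTF2 in the 3 Huh7 control libraries and all 6 HepG2 libraries. In CPM not divided by length, CSTF2T was already above CSTF2 in the Huh7 controls, where CSTF2 had 43.9, 40.8 and 40.6 CPM. The order in Huh7 controls thus depends on the annotated exon lengths, 4110 bases for CSTF2T and 2743 for CSTF2. With 3 libraries against 3, an exact two-sided permutation test cannot go below 0.1, so ratios are given here as values.

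PCF11 bridges the cleavage complex and the C-terminal domain of RNA polymerase II, and it is known to be limiting for termination in human cells. HepG2 cells had 65.6, 87.4 and 88.6 CPM of PCF11 with UBL5 siRNA, against 52.0, 49.3 and 44.4 CPM with Ctrl-siRNA. Huh7 cells had 64.3, 68.6 and 69.6 CPM with UBL5 siRNA, against 59.4, 60.0 and 55.2 CPM with Ctrl-siRNA. The groups did not overlap in either line, but the gap in Huh7 was narrow. PCF11 rose by 65.9% in HepG2 (log2 fold change 0.73 ± 0.13, SE, adjusted p = 0.00315) and by 15.9% in Huh7 (0.21 ± 0.06, adjusted p = 0.00535). The Huh7 call was lost when the spread was shared over all 12 libraries (adjusted p = 0.148) and when libraries were scaled by their totals only (adjusted p = 0.0611). PCF11 responded more in HepG2, by 0.55 ± 0.15 on the log2 scale (adjusted p = 0.0195). That call was lost on leaving out HepG2 UBL5 siRNA replicate 2 (0.49, adjusted p = 0.0516), Huh7 Ctrl-siRNA replicate 2 (adjusted p = 0.0518) or Huh7 UBL5 siRNA replicate 1 (adjusted p = 0.0541). The gene lies on chromosome 11 at 83156988-83187451 (plus strand, 16 exons), and 18.9% of its exon bases are shared with other annotated genes, among them the antisense transcript PCF11-AS1.

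CLP1 encodes the RNA kinase that joins PCF11 in cleavage factor II, and the RNA levels of these genes were compared. Their proteins were not measured here. Per kilobase of exon, HepG2 libraries held 0.474, 0.640 and 0.601 times as much PCF11 as CLP1 with UBL5 siRNA, against 0.407, 0.406 and 0.440 times with Ctrl-siRNA. The ratios in Huh7 were 0.144, 0.174 and 0.201 with UBL5 siRNA and 0.177, 0.180 and 0.184 with Ctrl-siRNA. The KD libraries lay above the controls in HepG2 and on both sides of them in Huh7. CLP1 itself had a log2 fold change of 0.27 in HepG2, where it was not called (adjusted p = 0.116). In Huh7 it rose by 0.29 (adjusted p = 0.0079).

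WDR33 is the CPSF subunit that, with CPSF4, binds the AAUAAA signal. In HepG2, WDR33 had 198.8, 212.3 and 215.6 CPM with UBL5 siRNA, against 158.8, 158.5 and 146.3 CPM with Ctrl-siRNA. In Huh7, WDR33 had 241.2, 239.8 and 225.2 CPM with UBL5 siRNA, against 158.0, 156.1 and 146.0 CPM with Ctrl-siRNA. Every KD library lay above every control of its line. WDR33 rose by 35.2% in HepG2 (log2 fold change 0.43 ± 0.08, SE, adjusted p = 0.00315) and by 53.4% in Huh7 (0.62 ± 0.05, adjusted p = 4.83e-07). The difference between the lines was -0.15 (95% interval -0.35 to 0.04, adjusted p = 0.252). Both within-line calls were kept under every alternative. The gene spans chromosome 2 at 127701027-127811187 (minus strand, 22 exons). SFT2D3, annotated on the other strand, covers 25.7% of its exon bases, and because the strand setting of the counting is not given in the sources used here, reads of these genes cannot be told apart.

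CPSF4 carries the zinc fingers that contact the same signal beside WDR33. In HepG2, CPSF4 had 58.4, 51.1 and 48.0 CPM with UBL5 siRNA, against 56.0, 50.1 and 54.1 CPM with Ctrl-siRNA, and the groups overlapped (log2 fold change -0.02, 95% interval -0.26 to 0.22, adjusted p = 0.889). In Huh7, CPSF4 had 97.6, 89.0 and 79.7 CPM with UBL5 siRNA, against 78.9, 78.9 and 79.2 CPM with Ctrl-siRNA. The lowest KD library exceeded the highest control by a small margin only. CPSF4 was called higher in Huh7 (0.17 ± 0.07, SE, adjusted p = 0.0414). The call was lost on leaving out any single library other than UBL5 siRNA replicate 3 (adjusted p up to 0.148, without UBL5 siRNA replicate 1), with library totals only (adjusted p = 0.267) and in the 12-library fit (adjusted p = 0.178). The ratio of WDR33 to CPSF4 per kilobase was 0.993, 1.21 and 1.31 in HepG2 with UBL5 siRNA, against 0.828, 0.922 and 0.789 with Ctrl-siRNA. In Huh7, it was 0.721, 0.786 and 0.824 with UBL5 siRNA, against 0.584, 0.577 and 0.538 with Ctrl-siRNA. The ratio was thus higher in every KD library than in every control library of the same line.

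CPSF1, the scaffold of CPSF, was called higher in Huh7 and not called in HepG2. In Huh7, it had 172.4, 179.4 and 175.0 CPM with UBL5 siRNA, against 142.6, 144.7 and 163.5 CPM with Ctrl-siRNA, and rose by 0.23 ± 0.06 on the log2 scale (adjusted p = 0.00352). This call was lost in the 12-library fit (adjusted p = 0.132). HepG2 libraries had 154.9, 173.5 and 125.6 CPM of CPSF1 with UBL5 siRNA, against 146.3, 149.0 and 116.0 CPM with Ctrl-siRNA. Replicate 3 was the lowest of both HepG2 groups, the groups overlapped, and the gene was not called (0.14, 95% interval -0.17 to 0.46, adjusted p = 0.462).

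CPSF2 and CPSF3 are related metallo-β-lactamase proteins, of which CPSF3 is the endonuclease and CPSF2 its catalytically inactive partner. CPSF2 had 146.2, 142.2 and 138.6 CPM in Huh7 with UBL5 siRNA, against 132.0, 129.4 and 125.8 CPM with Ctrl-siRNA, and rose by 0.14 on the log2 scale (adjusted p = 0.0147). That call was lost without Ctrl-siRNA replicate 3 (adjusted p = 0.0595), with library totals only (0.06, adjusted p = 0.273) and in the 12-library fit (adjusted p = 0.14). In HepG2, CPSF2 had 131.9, 122.7 and 128.5 CPM with UBL5 siRNA, against 144.0, 140.8 and 157.7 CPM with Ctrl-siRNA. The KD libraries were all below the controls there, the reverse of Huh7, but the gene was not called (-0.21 ± 0.08, SE, adjusted p = 0.0793). With the replicate numbers as a block, which fits the HepG2 libraries because same-numbered ones deviated together, CPSF2 was called lower in HepG2 (-0.21, adjusted p = 0.0486). The 12-library fit (adjusted p = 0.0186) and library totals only (-0.26, adjusted p = 0.0359) called it lower as well. The difference between the lines was -0.32 ± 0.09 (adjusted p = 0.0232). It was no longer called without HepG2 UBL5 siRNA replicate 2 (adjusted p = 0.0553), Huh7 Ctrl-siRNA replicate 2 (0.0578) or 3 (0.069), or Huh7 UBL5 siRNA replicate 1 (0.067) or 2 (0.0615).

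CPSF3, the nuclease, was not called in either line. HepG2 libraries had 79.4, 59.7 and 54.8 CPM with UBL5 siRNA, against 81.8, 71.9 and 75.4 CPM with Ctrl-siRNA (log2 fold change -0.24, 95% interval -0.56 to 0.08, adjusted p = 0.218). The KD libraries were spread widely, and without UBL5 siRNA replicate 1, the highest, CPSF3 was called lower (-0.41, adjusted p = 0.0246). In Huh7, CPSF3 had 52.4, 50.1 and 44.8 CPM with UBL5 siRNA, against 52.9, 48.2 and 48.0 CPM with Ctrl-siRNA (-0.02, 95% interval -0.17 to 0.14, adjusted p = 0.814).

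Cleavage factor I is built from a NUDT21 dimer, which reads UGUA, and from CPSF6 or CPSF7, which are alternative large subunits. Its 3 genes responded unequally in Huh7. CPSF7 had 317.5, 307.8 and 299.1 CPM there with UBL5 siRNA, against 222.5, 218.8 and 212.1 CPM with Ctrl-siRNA, and rose by 0.50 ± 0.04 on the log2 scale (adjusted p = 1.15e-06). NUDT21 had 246.6, 245.7 and 245.2 CPM with UBL5 siRNA, against 220.6, 203.9 and 203.3 CPM with Ctrl-siRNA, and rose by 0.23 ± 0.05 (adjusted p = 0.000773). CPSF6 had 134.6, 126.7 and 122.4 CPM with UBL5 siRNA, against 145.5, 125.8 and 126.9 CPM with Ctrl-siRNA, and was not called (-0.06, 95% interval -0.19 to 0.08, adjusted p = 0.447). The CPSF7 groups lay far apart and those of CPSF6 overlapped.

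None of the 3 cleavage factor I genes was called in HepG2. CPSF7 had 128.3, 133.0 and 128.7 CPM in HepG2 with UBL5 siRNA, against 129.1, 124.5 and 102.1 CPM with Ctrl-siRNA (log2 fold change 0.13, 95% interval -0.10 to 0.37, adjusted p = 0.346). The control value that stood below the others is that of replicate 3, and without it the log2 fold change was 0.03. NUDT21 had 345.3, 290.3 and 298.3 CPM with UBL5 siRNA, against 357.2, 293.7 and 295.9 CPM with Ctrl-siRNA (-0.02, 95% interval -0.26 to 0.22, adjusted p = 0.906). CPSF6 had 96.8, 92.7 and 85.9 CPM with UBL5 siRNA, against 103.1, 97.0 and 81.3 CPM with Ctrl-siRNA (-0.03, 95% interval -0.28 to 0.22, adjusted p = 0.855). Replicate 1 was the highest library of both groups for NUDT21 and CPSF6. Of the exon bases of NUDT21, 45.9% are shared with an unnamed gene on the same strand (ENSG00000288725), so its count is uncertain.

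The response of CPSF7 was smaller in HepG2 than in Huh7, by -0.34 ± 0.11 on the log2 scale (SE, adjusted p = 0.037). This call held without HepG2 Ctrl-siRNA replicate 3, and leaving out any other single library, in either line, ended it (adjusted p between 0.0547 and 0.0894). For NUDT21, the difference was -0.22 (95% interval -0.48 to 0.03, adjusted p = 0.209), and with the replicate block it was called (adjusted p = 0.0313). Within each library, the ratio of CPSF7 to CPSF6 per kilobase was 1.77, 1.91 and 2.0 in HepG2 with UBL5 siRNA, against 1.67, 1.71 and 1.68 with Ctrl-siRNA. In Huh7, this ratio was 3.15, 3.24 and 3.26 with UBL5 siRNA, against 2.04, 2.32 and 2.23 with Ctrl-siRNA. CPSF7 thus outweighed CPSF6 more in every KD library than in any control of the same line.

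**Figure D2:**
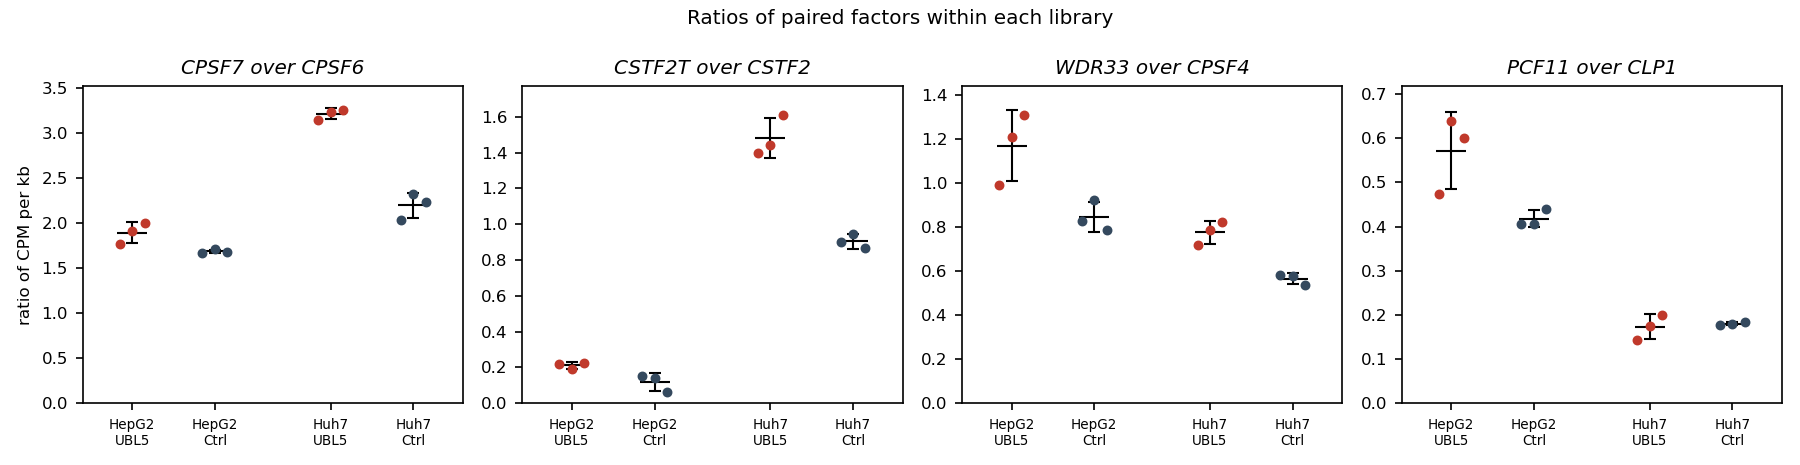
Ratio of CPM per kilobase of exon within each library (y axes, from 0) for CPSF7 over CPSF6, CSTF2T over CSTF2, WDR33 over CPSF4 and PCF11 over CLP1, for UBL5 siRNA (red) and Ctrl-siRNA (blue) in HepG2 and Huh7. Points are libraries, bars are means and whiskers are SD (n = 3). The KD libraries lie above the controls in both lines for the first 3 ratios, and for PCF11 over CLP1 in HepG2 only, where 0.474 is the lowest KD value and 0.440 the highest control.

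Whether the response differed between the lines was tested over all 12 libraries as the log2 fold change in HepG2 minus that in Huh7. It differed for 3 of 10 members, beside 21.5% of all genes tested. PCF11 was on the side of a larger rise in HepG2, and CPSF2 and CPSF7 had the lower fold change there. The other 7 members had differences between -0.22 for NUDT21 and 0.05 for CPSF6, with adjusted p from 0.209 to 0.848. None of the 3 calls withstood the removal of every single library, and without HepG2 UBL5 siRNA replicate 2, Huh7 Ctrl-siRNA replicate 2 or Huh7 UBL5 siRNA replicate 1 no member was called.

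**Figure D3:**
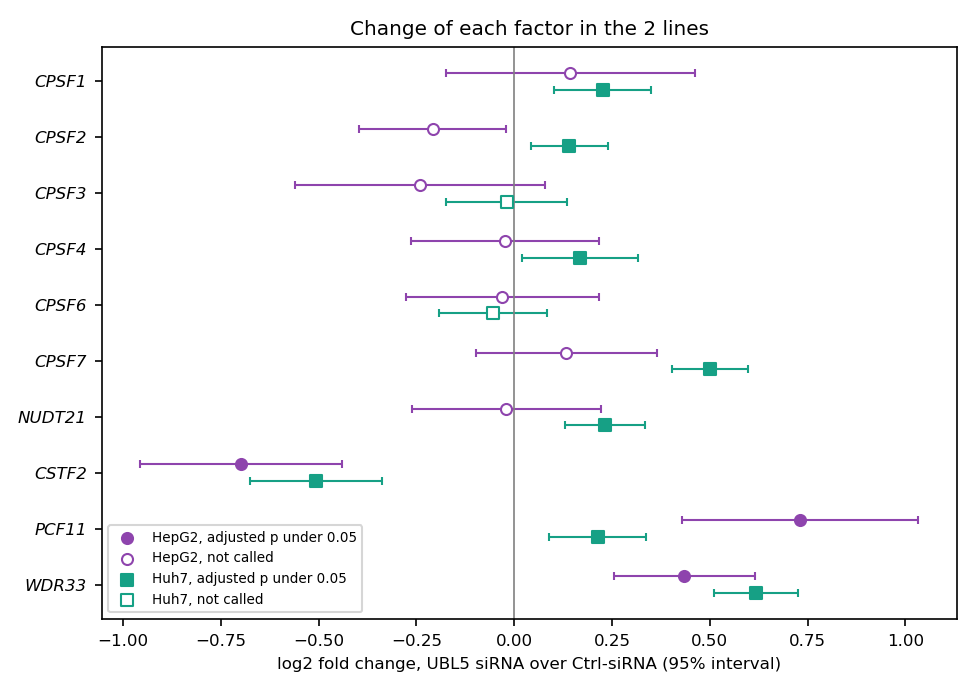
Log2 fold change of UBL5 siRNA over Ctrl-siRNA (x axis) for each of the 10 factors in HepG2 (circles) and Huh7 (squares), with 95% intervals that are not adjusted for the number of genes. Filled symbols passed an adjusted p under 0.05. CSTF2 lies left of 0 and PCF11 and WDR33 right of it in both lines, and PCF11, CPSF2 and CPSF7 are the members whose lines differed in the test of the difference.

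The lines differed in the members before any KD. With Ctrl-siRNA, 7 of 10 members differed between HepG2 and Huh7, beside 63.7% of all genes tested. Levels for this comparison were scaled over all 12 libraries. CSTF2 had 66.8, 71.2 and 77.0 CPM in HepG2 controls, against 43.2, 40.1 and 39.4 CPM in Huh7 controls (log2 difference 0.81 ± 0.10, SE, adjusted p = 6.47e-06). CPSF3 had 84.8, 74.9 and 79.4 CPM in HepG2, against 52.1, 47.3 and 46.5 CPM in Huh7 (0.71, adjusted p = 0.000113). NUDT21 had 370.2, 305.7 and 311.9 CPM in HepG2, against 217.0, 200.2 and 197.0 CPM in Huh7 (adjusted p = 6.78e-06). These members, and CPSF2 with a smaller difference (0.29, adjusted p = 0.00146), were higher in HepG2 without overlap of the libraries. CPSF7 had 133.8, 129.6 and 107.6 CPM in HepG2, against 218.9, 214.8 and 205.7 CPM in Huh7 (-0.79 ± 0.08, adjusted p = 5.58e-07). CPSF4 (-0.47, adjusted p = 0.000322) and CPSF6 (-0.41, adjusted p = 0.00108) were lower in HepG2 as well. The intervals for the rest were -0.27 to 0.19 for CPSF1, -0.40 to 0.06 for PCF11 and -0.03 to 0.24 for WDR33. The same 7 members were called under every alternative tried. Cell line and any separate handling of the lines cannot be told apart.

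Per kilobase of exon, which allows levels of different genes to be compared, NUDT21 stood highest in HepG2, with 52.5 ± 5.01 CPM per kb with UBL5 siRNA and 53.2 ± 6.08 with Ctrl-siRNA (SD, n = 3 each). PCF11 was the lowest of the 10 in all 4 groups. In HepG2 it had 8.09 CPM per kb with UBL5 siRNA and 4.88 with Ctrl-siRNA, and in Huh7 6.78 and 5.85. In HepG2 with UBL5 siRNA, CPSF1 (25.0 CPM per kb), CPSF7 (21.5), CPSF3 (17.5), CSTF2 (15.4), WDR33 (14.3) and CPSF4 (12.4) followed NUDT21, and each overlapped the next in range. With Ctrl-siRNA the order after NUDT21 was CSTF2 (25.0), CPSF1 (22.6), CPSF3 (20.7) and CPSF7 (19.6), again with overlapping neighbours, so CSTF2 had CPSF1, CPSF7 and CPSF3 above it in the KD cells and none of them in the controls, by mean level. In Huh7 with UBL5 siRNA, CPSF7 (51.0 CPM per kb) stood apart from NUDT21 (41.5) at the top, and with Ctrl-siRNA these overlapped (36.1 and 35.3). WDR33, at 16.2 CPM per kb with UBL5 siRNA and 10.5 with Ctrl-siRNA in Huh7, passed CPSF3 and CSTF2 in the order, while CSTF2 had 10.7 with UBL5 siRNA and 15.2 with Ctrl-siRNA. These lengths are annotated exon bases of a gene, not of the isoform in these cells.

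Genes of 6 related lists are given beside the shares of all genes tested, which were 16.5% called higher and 20.1% lower in HepG2, and 34.9% higher and 36.4% lower in Huh7. Of 15 other proteins of the core machinery, 4 rose and 2 fell in HepG2 (median log2 fold change 0.14), and 9 rose and 2 fell in Huh7 (median 0.20), so that the share called in either direction was near that of all genes in both lines. The HepG2 count was 3 higher and 4 lower without Ctrl-siRNA replicate 3, and 3 of each without replicate 3 in both groups. With library totals only, 2 rose and 2 fell in HepG2 and 6 rose and 2 fell in Huh7. SYMPK, the symplekin scaffold that holds CPSF and cleavage stimulation factor together, fell by 0.34 in HepG2 (adjusted p = 0.023) and by 0.83 in Huh7 (adjusted p = 5.83e-08). The HepG2 call was lost without UBL5 siRNA replicate 2 or 3, or Ctrl-siRNA replicate 1 or 2 (adjusted p between 0.0656 and 0.0934). CSTF1, the partner of CSTF2 in the cleavage stimulation factor, rose while CSTF2 fell, with 0.34 in HepG2 (adjusted p = 0.00948) and 0.69 in Huh7 (adjusted p = 5.47e-07). CSTF3, the remaining subunit, was picked out after its values were seen and had 0.54 in HepG2 (adjusted p = 0.0407) and 0.30 in Huh7 (adjusted p = 0.000395). Its HepG2 call was lost without Ctrl-siRNA replicate 2 or any single UBL5 siRNA library (adjusted p between 0.0667 and 0.112). With library totals only it was lost as well (0.48, adjusted p = 0.0667). The Huh7 call of CSTF3 was lost in the 12-library fit (adjusted p = 0.0969). Within this factor, CSTF2 and CSTF1 thus moved in opposite directions in both lines. The poly(A) polymerase PAPOLG rose in both lines (0.86 and 0.73, adjusted p = 0.00346 and 1.76e-06). RBBP6, which activates the CPSF3 nuclease, rose in Huh7 (0.61, adjusted p = 5.22e-07) and was not called in HepG2 (0.14, adjusted p = 0.381).

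Of 13 genes of transcription termination, where PCF11 acts, 9 rose and 1 fell in HepG2 (median 0.53), beside 16.5% higher and 20.1% lower over all genes. In Huh7, 10 rose and 1 fell (median 0.59), beside 34.9% and 36.4%. Among them SCAF4 and SCAF8, which bind the polymerase tail and restrain early poly(A) site use, had 0.72 and 0.68 in HepG2 (adjusted p = 0.00194 and 0.00096) and 1.12 and 1.18 in Huh7 (adjusted p = 8.97e-09 and 2.69e-09). WDR82 and PPP1R10 of the PNUTS phosphatase complex had 0.72 and 0.49 in HepG2 (adjusted p = 0.000243 and 0.00371) and 1.13 and 1.16 in Huh7 (adjusted p = 2.64e-09 and 3.04e-09). These genes were named for the smallest adjusted p in the list. RPRD1B was the gene that fell, by 0.52 in HepG2 (adjusted p = 0.0155) and 0.22 in Huh7 (adjusted p = 0.00287). The termination list was chosen with earlier results of these data known, so its excess over all genes is not a test. Of 6 proteins of U1 snRNP and its LUC7-like partners, which keep premature cleavage in check, 2 rose in HepG2 and 5 in Huh7, beside 16.5% and 34.9% of all genes, and none fell. The HepG2 count was 4 with the replicate block and 5 with DESeq2 or without replicate 3 in both groups. LUC7L had 0.56 in HepG2 (adjusted p = 0.00232) and 0.78 in Huh7 (adjusted p = 6.88e-06), and SNRPC had 0.67 (adjusted p = 0.00633) and 0.48 (adjusted p = 2.76e-05). LUC7L2 and SNRPA rose in Huh7 (0.66 and 0.42, adjusted p = 9.62e-06 and 1.79e-05) and had 0.43 and 0.37 in HepG2, where they were not called (adjusted p = 0.0661 and 0.0613). Without HepG2 Ctrl-siRNA replicate 3, LUC7L2 was called there (0.60, adjusted p = 0.00678), as it was with DESeq2 (adjusted p = 0.033) and in the 12-library fit (adjusted p = 0.0155). SNRPA was called with the replicate block (adjusted p = 0.0162), DESeq2 (0.0152), RLE scaling (0.0412), limma voom (0.0482) and the 12-library fit (0.00804).

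The histone 3′ end machinery uses CPSF2, CPSF3 and CSTF2 with its own U7 snRNP. Of 7 such genes, 3 fell and 0 rose in HepG2 (median -0.28), where 20.1% of all genes fell. In Huh7 4 rose and 2 fell (median 0.18), where 34.9% of all genes rose and 36.4% fell, and 2 rose when libraries were scaled by their totals only. LSM11, a U7 protein, fell by 0.73 in HepG2 (adjusted p = 0.00724) and by 0.82 in Huh7 (adjusted p = 1.11e-05). Its partner LSM10 fell by 0.65 in Huh7 (adjusted p = 2.5e-05) and had -0.28 in HepG2 (adjusted p = 0.0646; 0.0499 without Ctrl-siRNA replicate 3). ZNF473 and CASP8AP2 rose in Huh7 (0.34 and 0.31, adjusted p = 0.000249 and 0.000797) and had -0.02 and -0.19 in HepG2 (adjusted p = 0.935 and 0.182). The Integrator complex cuts snRNA and other short transcripts with INTS11 and INTS9, the paralogs of CPSF3 and CPSF2. Of its 14 subunits, 0 rose and 3 fell in HepG2 (median -0.06), and 6 rose and 2 fell in Huh7 (median 0.16; 4 and 3 with library totals only). The HepG2 share was near the 20.1% of all genes that fell, and fewer subunits were called in Huh7 than the 71.3% of all genes. INTS11 rose in Huh7 (0.37, adjusted p = 0.000114) and had -0.15 in HepG2 (adjusted p = 0.368). INTS9 was called in neither line (-0.02 and 0.16, adjusted p = 0.919 and 0.0937), but it was called higher in Huh7 with the replicate block (adjusted p = 0.0411) and without UBL5 siRNA replicate 3 (0.21, adjusted p = 0.0489). INTS8 fell in both lines (-0.56 and -0.57, adjusted p = 0.00485 and 7.39e-06), while INTS6 and INTS7 rose in Huh7 (0.75 and 0.32, adjusted p = 5.37e-06 and 4.9e-05) and had -0.02 and -0.05 in HepG2 (adjusted p = 0.936 and 0.788).

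Deadenylases shorten the tails that this machinery makes. Of 14 such genes, 3 rose and 2 fell in HepG2 (median 0.03), and 9 rose and 3 fell in Huh7 (median 0.21). The share called in HepG2 was near the 36.7% of all genes, and 71.3% of all genes were called in Huh7. The extremes were the same genes in both lines. PAN2, the nuclease of the PAN2-PAN3 complex, had 19.1, 20.8 and 19.6 CPM in HepG2 with UBL5 siRNA, against 51.2, 49.7 and 39.0 CPM with Ctrl-siRNA, and fell by 1.23 (adjusted p = 0.00028). In Huh7, PAN2 fell by 1.80 (adjusted p = 7.35e-10). CNOT3, a scaffold subunit of CCR4-NOT, rose by 1.65 in HepG2 (adjusted p = 0.00031) and by 1.67 in Huh7 (adjusted p = 1.04e-09). Both changes exceed those of the 10 cleavage factors, the largest of which was 0.73 for PCF11. CNOT6, a catalytic subunit, rose by 0.66 (adjusted p = 0.000807) and 0.86 (adjusted p = 5.26e-08), and CNOT7, another, rose in Huh7 (0.59, adjusted p = 2.92e-07) and had 0.18 in HepG2 (adjusted p = 0.117).

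**Figure D4:**
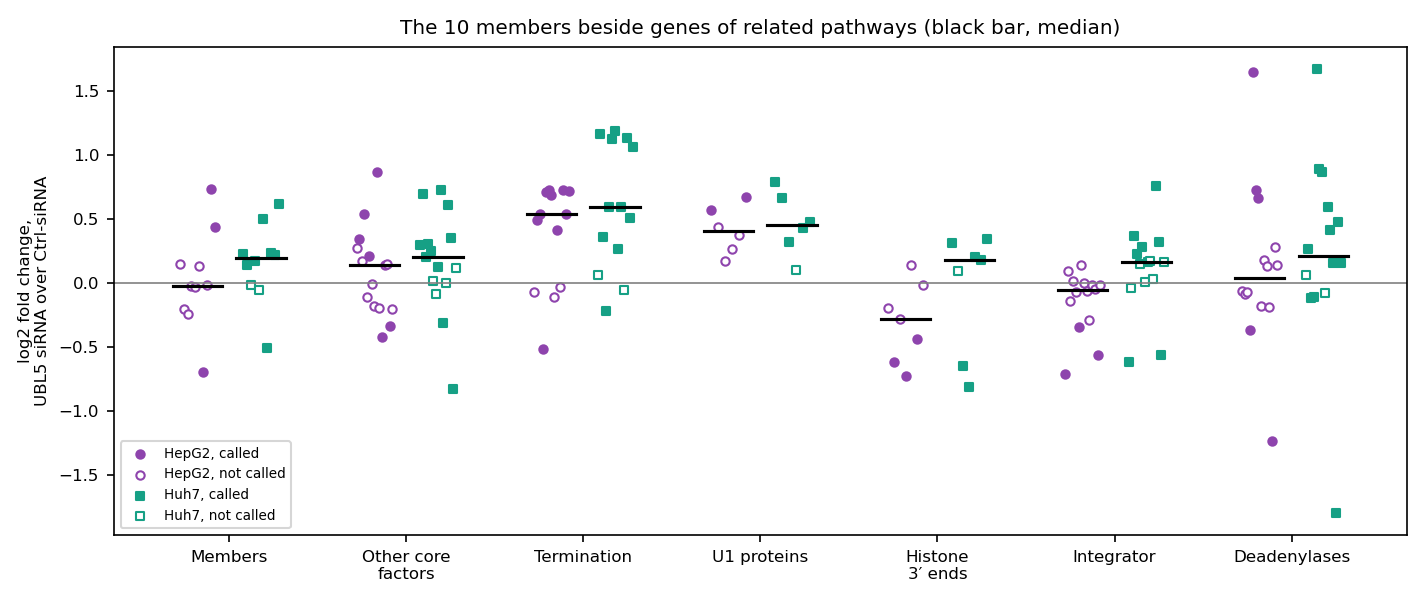
Log2 fold change of UBL5 siRNA over Ctrl-siRNA (y axis) for the 10 cleavage factors and for genes of 6 related lists in HepG2 (circles) and Huh7 (squares). Filled symbols passed an adjusted p under 0.05 and black bars are medians. The lists were chosen with earlier results of these data known. The termination genes have medians of 0.53 and 0.59, the cleavage factors -0.02 and 0.19, and the outlying deadenylase genes are CNOT3 above and PAN2 below.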

How the data were processed

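RNA-Seq libraries were made from polyadenylated RNA (stranded kit, single reads). Per the labels and the submitters' processing notes, the authors used bcl2fastq, FastQC 0.11.9, STAR 2.7.6a on GRCh38, featureCounts and DESeq2 1.30.0. The version, annotation and strand setting of featureCounts are not given in the sources used here. The authors deposited raw counts per gene and library, divided by the sign of their fold change. Their own columns (base mean, log2 fold change and its error, Wald statistic, p-value and adjusted p-value) were not used. All 12 count columns were matched to samples.

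The tools were edgeR 4.0.16, limma 3.58.1 and DESeq2 1.42.0 in R 4.3.3, and pandas 2.3.3, numpy 2.4.6 and matplotlib 3.10.9 in Python 3.11.15. After filterByExpr with a minimum count of 10 and a minimum total of 15, libraries were scaled by TMM and genes compared by the quasi-likelihood test of edgeR within each line (15755 genes in HepG2, 16965 in Huh7), or over 12 libraries (15668 genes) for contrasts between lines. A call is an adjusted p under 0.05, with Benjamini-Hochberg adjustment across the whole table. The main design followed the within-line comparisons of the study. Raw counts of the members ran from 573 to 9327 per library, so their precision was set mostly by the spread between libraries.

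Same-numbered HepG2 libraries deviated together (r = 0.219, 0.142 and 0.135 across genes), so a paired fit with the replicate number as a block was run beside the main one. In Huh7 this held for replicates 1 and 3 (0.224 and 0.308) and not for replicate 2 (0.0124). No library duplicated another of its group, and pairs across groups were not compared. The fitting step was tested on simulated counts.

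The named genes are UBL5, the 10 members, up to 4 genes from each of 6 lists, taken by smallest adjusted p, and the paralogs CSTF2T, INTS9 and INTS11. CLP1, CSTF3 and RPRD1B are given outside this rule. So are ERI1, SLBP, INTS14, PPP1CB, CNOT9 and CNOT10, for the difference between the lines only. Members and lists were chosen with earlier results of these data known. GENCODE release 44 on GRCh38 gave gene models and sequences, and matched 99.79% of the HepG2 and 99.8% of the Huh7 identifiers. Of the lists, SUPT4H1 was not analysed here, and one sequence is not reported here. Other annotated genes cover 23.7% of the exon bases of LUC7L2, 20.7% of those of INTS8, 19.5% of those of PAN2 and 18.8% of those of CNOT7. For the marker LYZ this share is 34.7%.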

Additional observations from a re-analysis of the deposited data

Results flagged for a closer look

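In the test over all 12 libraries, the response to UBL5 siRNA differed between the lines for 3 of the 10 cleavage and polyadenylation factors. The share over all genes tested was 21.5%, so this count does not set the members apart. Each value is the log2 fold change in HepG2 minus that in Huh7. The difference was -0.32 for CPSF2 (adjusted p = 0.0232), -0.34 for CPSF7 (adjusted p = 0.037) and 0.55 for PCF11 (adjusted p = 0.0195). Each lost its call when some single libraries were left out, as given above for each gene.

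Among the partner genes, it differed for SYMPK by 0.52 (adjusted p = 0.00286), for RBBP6 by -0.44 (0.0205) and for CSTF1 by -0.32 (0.0249). The RBBP6 call was lost without Huh7 UBL5 siRNA replicate 3 (0.0535) or Huh7 Ctrl-siRNA replicate 3 (0.0536), and the CSTF1 call without Huh7 UBL5 siRNA replicate 1 (0.0687) or 2 (0.0698) or Huh7 Ctrl-siRNA replicate 3 (0.0735). For the termination genes SCAF8, WDR82 and PPP1R10 it differed by -0.47 (adjusted p = 0.00583), -0.38 (0.00323) and -0.64 (0.000496). The histone 3′ end genes LSM10 and CASP8AP2 differed by 0.39 (adjusted p = 0.0499) and -0.47 (0.00845), and LSM10 was not called without any one of 10 of the 12 libraries (0.0525 to 0.124). The Integrator genes INTS6 and INTS11 differed by -0.74 (adjusted p = 0.00693) and -0.48 (0.0159). The deadenylase genes PAN2 and CNOT7 differed by 0.59 (adjusted p = 0.00693) and -0.38 (0.00669). These partner genes were named for a small adjusted p within a line, so their number cannot be compared with the 21.5% of all genes. Listed genes outside that rule differed as well. They were ERI1 (-0.68, adjusted p = 0.00323) and SLBP (-0.59, 0.0072) of the histone list, INTS14 (-0.60, 0.00452), PPP1CB (-0.39, 0.0404), CNOT9 (-0.32, 0.0385) and CNOT10 (-0.32, 0.0325). Fits with libraries left out are not given for them.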

How the results depend on the processing

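In HepG2, the count of members called was 3 or 4 under each alternative, and 3 without replicate 3 in both groups, a choice made after seeing the data. With the replicate block it was 4, CPSF2 being added, over 6431 genes called in place of 5780. In Huh7, 8 members were called, 8 with the replicate block, 5 with library totals only and 4 in the 12-library fit, where the spread is shared with HepG2. The genes called over the whole table numbered 12098, 12672, 12025 and 8530 in these settings. Leaving out single libraries gave 3 to 4 members in HepG2, 6 to 8 in Huh7, 0 to 3 for the difference between the lines and 7 for the controls. The genes called then numbered 3819 (without HepG2 UBL5 siRNA replicate 2) to 7270 (without HepG2 Ctrl-siRNA replicate 3), and 11445 to 12039 in Huh7. The difference between the lines held for 4 members with the replicate block, NUDT21 being added, which changed no other call on a member. The members' counts were high, so depth limits them less than the number of libraries does.

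Values near 0 changed sign. In HepG2, DESeq2 and RLE scaling each gave 0.0035 for CPSF4 and 0.0077 for NUDT21. DESeq2 gave 0.0081 for ZNF473, 0.0101 for INTS6 and 0.0056 for INTS9, and RLE scaling gave 0.008, 0.01 and 0.0057. Without the filter on low counts, NUDT21 had 0.003, ZNF473 0.0046, INTS6 0.0073 and INTS9 0.0022. Without replicate 3 in both groups, CPSF4 had 0.0585, INTS6 0.0338, INTS9 0.0555 and CSTF2T -0.0593, and CPSF1 had 0.0612 between the control groups (HepG2 minus Huh7). With single libraries left out, HepG2 values ran from -0.1023 to 0.0601 for CPSF4, -0.1254 to 0.0419 for CPSF6, -0.0968 to 0.0777 for NUDT21, -0.1291 to 0.0814 for ZNF473, -0.0808 to 0.1055 for INTS6, -0.1259 to 0.0266 for INTS7, -0.1185 to 0.3384 for CSTF2T and -0.1312 to 0.0816 for INTS9. Huh7 values ran from -0.0577 to 0.0523 for CPSF3 and -0.0953 to 0.017 for CPSF6. The difference between the lines ran from -0.1574 to 0.0574 for CPSF1 and -0.0336 to 0.1237 for CPSF6, and that between control groups from -0.1018 to 0.0613 for CPSF1.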
